A study of Mus musculus with 10 samples.

Results

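Collagen chain genes were examined in xenografts of human breast cancer cells. A gene was a member if a probe set carried exactly 1 symbol made of COL, a number, the letter A and a number. This gave 43 genes of the 19556 with such a symbol. They were read by 125 probe sets, and 35 of the 43 had more than 1. Where a gene had several, the one with the greatest average signal on the 10 arrays stood for it. COL17A1 was not analysed here.

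All hosts were female nu/nu mice aged 20 weeks that had received an estrogen pellet, and the tumor cells were estrogen receptor positive. With estrogen (E), the pellet stayed in place. In the withdrawn groups (EWD) it had been out for 1 week. The estrogen groups held lymph node metastases (LN) of mouse 6, mouse 11 and mouse 14 and primary tumors (PT) of mouse 11 and mouse 14. The withdrawn groups held lymph node metastases of mouse 9, mouse 10 and mouse 19 and primary tumors of mouse 10 and mouse 19. Lymph node groups thus had 3 arrays each and primary tumor groups 2. In all, 6 mice gave the 10 arrays, and 4 of them gave both sites. Such mice lack most T cells but keep other host cells. Cells were cut from frozen sections by laser capture, and their RNA was amplified by PCR. The labels name the mouse as organism, whereas the probe sets are human, so host RNA could be read only where a probe also binds the mouse sequence.

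Collagens are secreted triple helices built from 3 chains, which form the fibrils, sheets and anchoring structures of connective tissue. Chains are hydroxylated and folded in the endoplasmic reticulum, exported, trimmed, and cross-linked outside the cell. In breast tumors the fibrillar collagens are made mainly by fibroblasts, while epithelial cells contribute chiefly to the basement membrane.

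The captured material carried a luminal epithelial profile. All 16 luminal markers, among them KRT8, KRT18, GATA3 and ESR1, lay above the detection floor on all 10 arrays. The floor of an array was the 95th percentile of 80 olfactory receptor genes, which these tissues are not known to express highly, and it ranged from 3.25 to 3.99 on the log2 scale. The 2 primary tumor arrays with estrogen had 99th percentiles of 9.44 and 10.04, against 11.39 to 11.67 on the other 8. Their luminal list means, 8.01 and 8.25, were also below the 9.57 to 10.56 of the other arrays. The lymph node array of mouse 11 with estrogen had the highest floor and, within its group, the highest KRT5 (6.22) and TRIM29 (9.23), genes of basal cells. Of the 4 basal markers measured, 1 was above the floor on every array of that group. Results resting on these arrays are given without them where this could be done.

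Few collagen chains were detected. Of the 43, 9 lay above the floor on all 10 arrays (20.9%, against 41.3% of all genes), and 24 on none. Another 6 were above it on every array of at least 1 group, which brought that number to 15 (34.9%, against 55.6% of all genes). By group, 11 chains were above the floor in lymph nodes with estrogen (25.6%, against 44.7% of all genes). After withdrawal 11 were above it in lymph nodes (25.6%, against 50.8%). In primary tumors 15 were above it with estrogen (34.9%, against 47.1%) and 13 after withdrawal (30.2%, against 51.8%). Passing required every array of a group, which asks less of 2 primary tumor arrays than of 3 lymph node arrays. The median of the gene means was 2.89 for collagens and 3.89 for all genes. Signals of different probe sets depend on their probes, so no chain's level was set against another's.

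**Figure D1:**
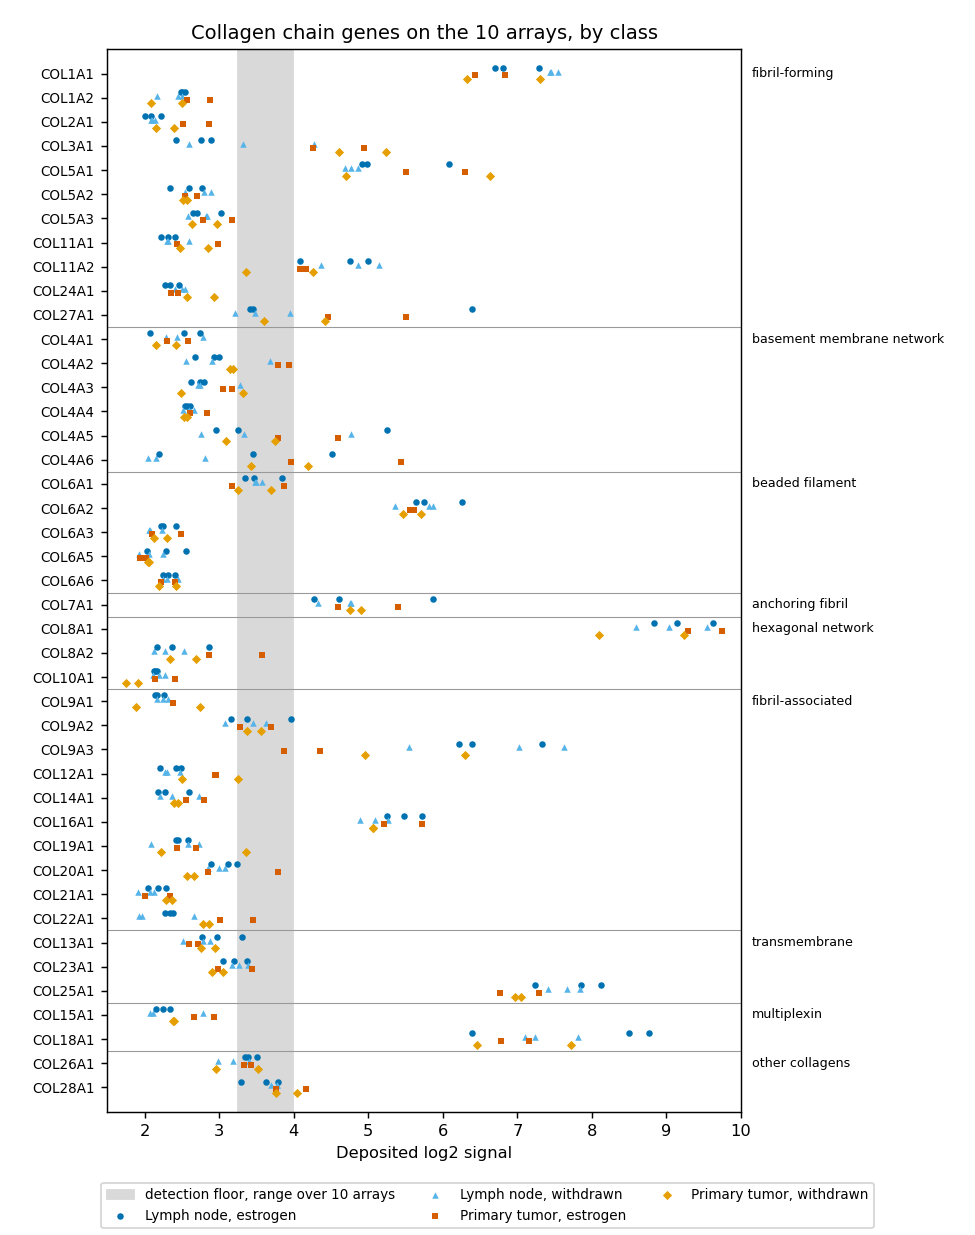
Deposited log2 signal (x axis) of the 43 collagen chain genes (y axis, by class), 1 point per array, with symbols for the 4 groups and a gray band for the detection floor of 3.25 to 3.99 across arrays. Most chains lie within or to the left of the band. COL1A1, COL5A1, COL6A2, COL7A1, COL8A1, COL16A1, COL18A1 and COL25A1 lie to its right on all 10 arrays.

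Among the 11 fibril-forming chains, which make the banded fibers of skin, bone, cartilage and stroma, 2 were above the floor on all arrays and 6 on none. COL1A1, a chain of type I collagen, measured 6.81, 7.29 and 6.71 in lymph nodes of mice 6, 11 and 14 with estrogen. After withdrawal it measured 7.44, 7.46 and 7.54 in lymph nodes of mice 9, 10 and 19. In primary tumors it measured 6.43 and 6.83 with estrogen (mice 11 and 14) and 6.33 and 7.30 after withdrawal (mice 10 and 19). The withdrawn lymph nodes were the highest and did not overlap the other 3 groups. COL1A2, the partner chain of type I, lay between 2.09 and 2.87 and below the floor on every array.

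COL5A1, a type V chain that takes part in starting fibrils, was the other fibril-forming chain above the floor throughout. It read 4.99, 6.08 and 4.92 in lymph nodes with estrogen, 4.69, 4.86 and 4.77 after withdrawal, 5.51 and 6.30 in primary tumors with estrogen, and 6.64 and 4.71 after withdrawal. Values of the 2 sites overlapped, and the primary tumor of mouse 10 after withdrawal was the highest. COL11A2, a minor chain of cartilage fibrils, and COL27A1 were each above the floor on 9 arrays, as was COL28A1 of the remaining collagens. COL27A1 stood at 6.39 in the lymph node of mouse 11 with estrogen and at 3.42 and 3.45 in the other 2 mice of that group.

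COL3A1, the type III chain of stromal and vessel wall fibers, was above the floor on all 4 primary tumor arrays. It measured 4.25 and 4.94 with estrogen and 4.61 and 5.23 after withdrawal. In lymph nodes it measured 2.76, 2.89 and 2.43 with estrogen and 3.32, 4.27 and 2.60 after withdrawal. The lymph nodes with estrogen were all below the floor and below every primary tumor, while after withdrawal the arrays of mice 9 and 10 were above the floor, and that of mouse 10 passed 1 of the primary tumors.

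None of the 6 basement membrane chains of type IV, which form sheets under epithelia, was above the floor on all arrays. COL4A6 passed it on 5 arrays, with 5.44 and 3.97 in primary tumors with estrogen and 4.19 and 3.42 after withdrawal. Lymph nodes with estrogen gave 2.19, 3.45 and 4.52, and withdrawn lymph nodes gave 2.81, 2.16 and 2.05. The withdrawn lymph nodes lay below every primary tumor, whereas those with estrogen overlapped them. COL4A2 was above the floor in both primary tumors with estrogen, at 3.79 and 3.93, and on 1 other array. COL4A5 was above it on 4 arrays but in no whole group.

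The other chains above the floor on all arrays came from 6 classes. COL8A1, of the short-chain network collagens, ranged from 8.09 to 9.74. COL18A1, a basement membrane collagen whose end fragment is endostatin, ranged from 6.39 to 8.77. COL25A1, a transmembrane collagen found with amyloid plaques, ranged from 6.77 to 8.12. COL6A2 (beaded filaments) lay between 5.36 and 6.25, COL7A1 (anchoring fibrils of epithelia) between 4.27 and 5.87, and COL16A1 (fibril-associated) between 4.88 and 5.72. These ranges overlapped between the sites.

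COL9A3, of the type IX collagen on the surface of cartilage fibrils, was above the floor on all arrays and differed by site. In lymph nodes it read 7.33, 6.39 and 6.22 with estrogen and 7.62, 7.02 and 5.54 after withdrawal. In primary tumors it read 4.36 and 3.87 with estrogen and 4.95 and 6.30 after withdrawal. With estrogen the sites did not overlap, and after withdrawal they did. Its partner chain COL9A1 was below the floor on every array and COL9A2 passed it on 3. Of 10 chondrocyte and bone markers, only SOX9 was above the floor on all arrays, and ACAN, COMP and MATN3 were above it on none.

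Other probe sets of the same gene often did not share the signal. Of the 9 chains above the floor on all arrays, 8 had more than 1 probe set, and in 3 of these at least 2 probe sets were above it throughout. These were COL1A1 (4 of 6), COL18A1 (2 of 2) and COL16A1 (2 of 3). COL8A1 rested on 1 of 4, and its other probe sets had means of at most 2.44. The probe sets used for COL8A1 and COL16A1 end in x_at, which marks probes that can match other sequences. Those used for COL1A1, COL18A1 and COL3A1 end in s_at, which marks probes shared by several transcripts. COL25A1 rested on 1 of 5, with the next at 2.94, and COL3A1 on 1 of 6, with the next at 2.94. COL9A3 had a single probe set.

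**Figure D2:**
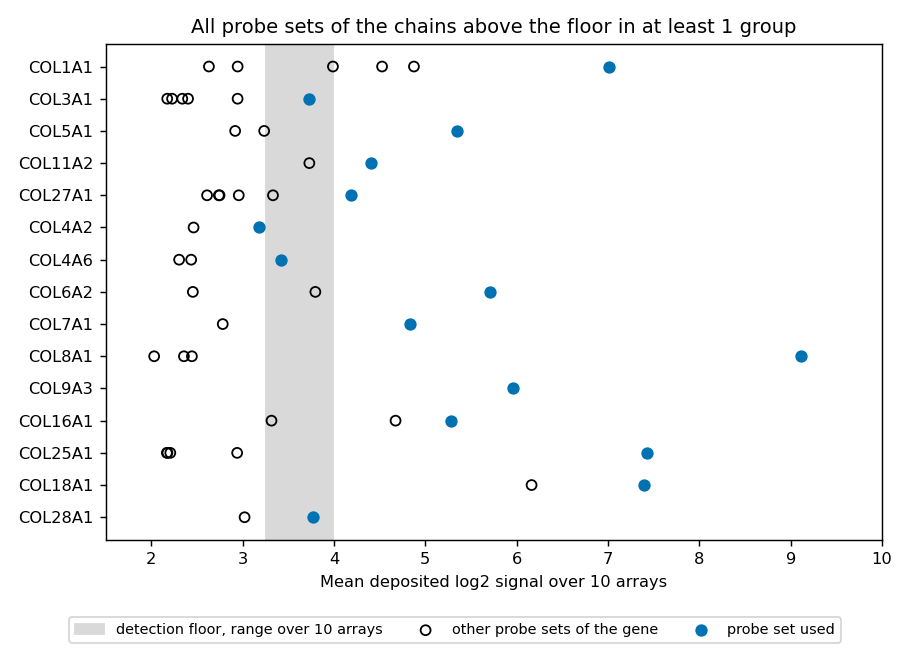
Mean deposited log2 signal over 10 arrays (x axis) of every probe set of the 15 chains above the floor in at least 1 group (y axis), filled for the probe set used and open for the others, with the floor's range in gray. COL1A1, COL16A1 and COL18A1 have at least 2 points right of the band, whereas COL8A1 and COL25A1 have 1 far to the right and the rest to the left.

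Whether a detected chain came from tumor cells or from host RNA bound across species was not tested. The values bearing on it were those of stromal genes read by the same human probe sets. Of 19 fibroblast and mesenchymal markers, 4 (FBLN1, THY1, BGN and MMP2) were above the floor on all arrays and 11 on none, including the defining genes VIM, DCN, LUM and PDGFRB. The list's mean ranged from 3.06 to 3.19 in lymph nodes with estrogen, 2.96 to 3.20 in lymph nodes after withdrawal, 3.13 to 3.37 in primary tumors with estrogen and 3.13 to 3.15 in primary tumors after withdrawal. Human probes at the floor do not show how much mouse RNA was present. Markers above the floor on all arrays numbered 3 of 10 for pericytes and smooth muscle (among them ACTA2), 4 of 14 for endothelium, 2 of 14 for leukocytes and lymph node and 1 of 6 for adipocytes. These samples pool cells cut by laser capture, so the choice of cells cut, fewer cells of a type and less RNA per cell cannot be told apart.

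The site comparison asked how lymph node metastases differed from primary tumors. With estrogen, COL3A1 was lower and COL9A3 higher in lymph nodes. These were 2 of the 37 chains tested (5.41%), against 8.76% of all 17169 genes called in that comparison (7.81% higher and 0.949% lower). At an unadjusted p below 0.05 stood 6 chains, and 23.1% of all genes. COL3A1 differed by −1.90 ± 0.47 (SE; 2.69 ± 0.24 SD, n = 3, against 4.60 ± 0.49, n = 2; limma adjusted p = 0.0412). Its values in lymph nodes with estrogen all lay below the floor, so the size of this difference is uncertain. COL9A3 differed by 2.55 ± 0.65 (6.65 ± 0.60, n = 3, against 4.11 ± 0.35, n = 2; limma adjusted p = 0.0469). The next chains, COL22A1 (−0.90 ± 0.28), COL4A2 (2.87 ± 0.17 against 3.86 ± 0.10) and COL8A2 (−0.76 ± 0.31), did not pass, with limma adjusted p between 0.0882 and 0.187.

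After withdrawal no chain passed the test in limma, and 3 of 37 had an unadjusted p below 0.05 (10% of all genes), while 0% of all genes were called. The chains with the greatest statistic were COL3A1, at −1.53 ± 0.47 (limma adjusted p = 0.330), COL11A2, at 0.98 ± 0.38, COL22A1, at −0.64 ± 0.28, COL4A6, at −1.46 ± 0.68, and COL25A1, at 0.63 ± 0.31. COL9A3 differed by 1.12 ± 0.65. This comparison used neither primary tumor array with estrogen, and both chains kept their sign in it.

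Averaged over both pellet states, 3 chains passed (8.11%, against 8.15% of all genes, 7.51% higher and 0.641% lower). At an unadjusted p below 0.05 stood 8 chains, and 23.4% of all genes. COL3A1 was lower in lymph nodes by −1.72 ± 0.33 (limma adjusted p = 0.0207), COL9A3 higher by 1.83 ± 0.46 (limma adjusted p = 0.0469), and COL22A1 lower by −0.77 ± 0.20 (limma adjusted p = 0.0486). COL22A1, a chain of tissue junctions such as that of muscle and tendon, read 2.38, 2.34 and 2.28 in lymph nodes with estrogen and 1.97, 1.92 and 2.67 after withdrawal. In primary tumors it read 3.46 and 3.01 with estrogen and 2.78 and 2.86 after withdrawal. All 6 lymph nodes were below all 4 primary tumors, but every value was below the floor, and the second probe set of the gene had the other sign. COL12A1 was the only other chain without overlap in this direction, which 0.629% of all genes showed, and it did not pass the test (−0.56 ± 0.18, limma adjusted p = 0.101). COL25A1 (0.67 ± 0.22, limma adjusted p = 0.0984) did not pass either.

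Fibroblast markers were read in the same averaged comparison. FBLN1 and FBN1, matrix proteins of fibroblasts, were lower in lymph nodes, by −0.89 ± 0.20 (limma adjusted p = 0.035) and −1.04 ± 0.24 (limma adjusted p = 0.037). FBLN1 read 3.73, 4.42, 3.63, 3.34, 3.66 and 3.78 on the 6 lymph node arrays. On the 4 primary tumor arrays it read 4.48, 4.75, 4.60 and 4.77, without overlap. FBN1 lay below the floor on all 6 lymph node arrays and above it on 3 primary tumor arrays, so the size of its difference is uncertain. These were 2 of 16 fibroblast markers tested, against 0.641% of all genes lower. The other 14 did not pass, and 9 of the 16 differences were positive, with a median of 0.05 against 0.16 over all genes. Neither was called after quantile normalization (−1.05, limma adjusted p = 0.112, and −1.10, limma adjusted p = 0.124). Their part in the COL3A1 difference was not tested.

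**Figure D3:**
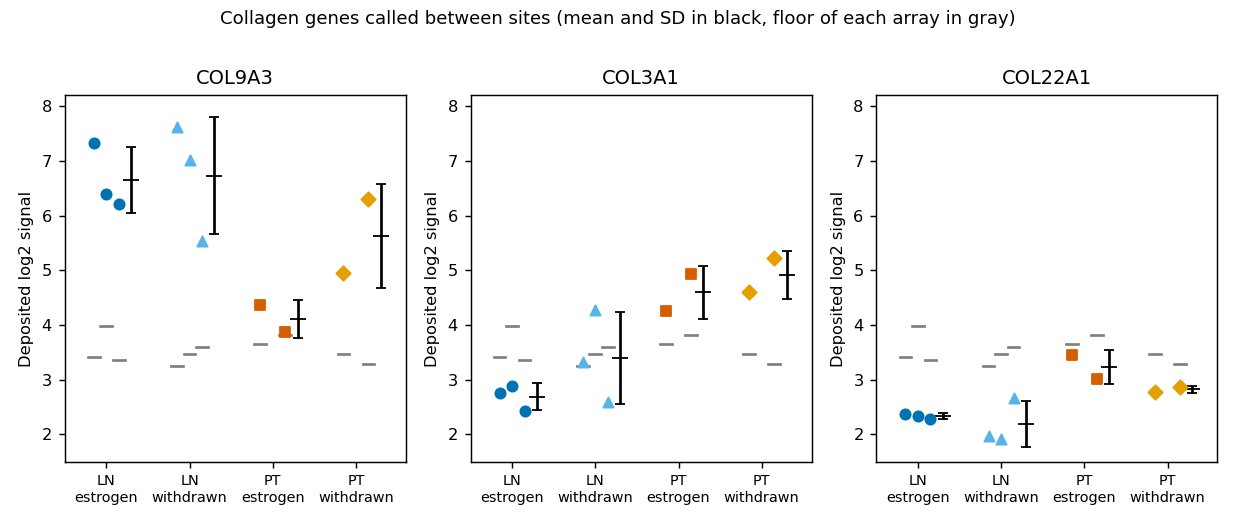
Deposited log2 signal (y axis) of COL9A3, COL3A1 and COL22A1 in the 4 groups (x axis; lymph node n = 3 each, primary tumor n = 2 each), 1 point per array, with the mean and SD in black and each array's floor in gray. COL9A3 is highest in lymph nodes, COL3A1 is above the floor in all 4 primary tumors, and every COL22A1 value is below its floor.

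**Figure D4:**
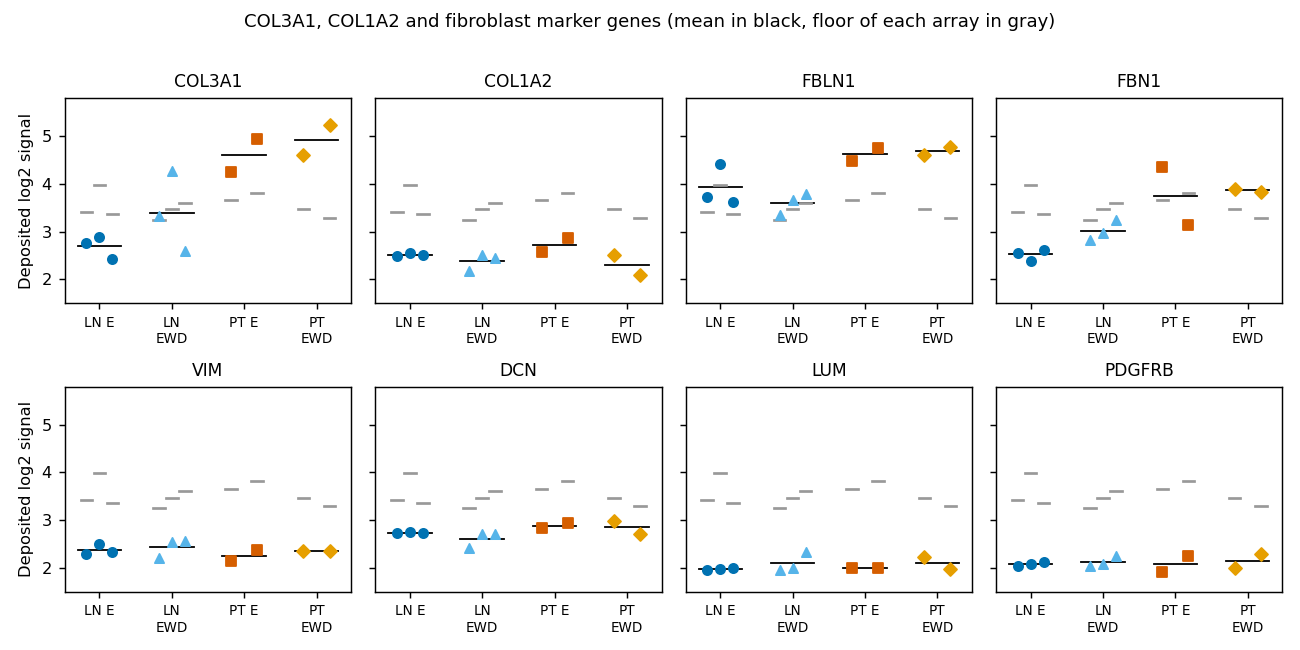
Deposited log2 signal (y axis) of COL3A1, COL1A2 and 6 fibroblast marker genes by group (x axis; LN n = 3, PT n = 2 per pellet state), 1 point per array, with the group mean in black and each array's floor in gray. COL3A1, FBLN1 and FBN1 have higher means in primary tumors, whereas COL1A2, VIM, DCN, LUM and PDGFRB are below the floor on all arrays.

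The 3 site calls depended on scaling and on single arrays. After quantile normalization, which gives all arrays the same distribution, none of the 37 chains was called in limma, against 0.46% of all genes with estrogen and 0.338% on average. COL3A1 then differed by −2.16 with estrogen (limma adjusted p = 0.100) and −1.89 on average (limma adjusted p = 0.0573). COL9A3 differed by 2.35 (limma adjusted p = 0.131) and 1.64 (limma adjusted p = 0.121). Without the lymph node array of mouse 11, COL3A1 and COL9A3 remained called with estrogen (−2.01 and 2.66), and COL27A1 was called as well (−1.54 ± 0.42, limma adjusted p = 0.0324). These were 3 of 37 chains, against 22.4% of all genes called with that array left out. With estrogen, the COL3A1 call was also kept without the withdrawn lymph node of mouse 10 or of mouse 19, and that of COL9A3 without the withdrawn lymph node of mouse 9 or of mouse 19. Leaving out the estrogen lymph node of mouse 6 or of mouse 14, or any 1 primary tumor, ended both calls. Over these single omissions COL3A1 ranged from −2.29 to −1.54 and COL9A3 from 2.19 to 2.74. Without the withdrawn lymph node of mouse 19, COL22A1 (−0.90, limma adjusted p = 0.0451) and COL4A2 (limma adjusted p = 0.0348) were called with estrogen too. In the average, calls were kept for COL3A1 without the lymph node of mouse 11 or 14 with estrogen or of mouse 10 or 19 after withdrawal, for COL9A3 without that of mouse 11, 14 or 19, and for COL22A1 without that of mouse 11 or 19, and each was lost in the other omissions. Without the estrogen lymph node of mouse 14, COL25A1 (0.80) and COL4A6 (−1.68) were called in the average. COL4A2 (−0.73) was called there without the withdrawn lymph node of mouse 19. Without the estrogen lymph node of mouse 11, COL27A1 (−1.01) was called in the average. In that setting 4 of 37 chains were called, against 18.4% of all genes. When the mean of all its probe sets was taken, COL3A1 differed by −0.59 with estrogen (limma adjusted p = 0.0677) and −0.47 on average (limma adjusted p = 0.0446).

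Across the 37 chains, 13 were higher and 24 lower in lymph nodes with estrogen (67.7% of all genes were higher). The median difference was −0.15, against 0.26 over all genes. For the 26 chains with means below 4 it was −0.22, and for all 7623 such genes −0.03. After withdrawal 19 were higher and 18 lower (56.6% of all genes were higher), with a median of 0.00 against 0.07. With estrogen, 3 chains were higher and 8 lower without overlap between the groups, where 38% of all genes did not overlap (28% higher and 9.98% lower). After quantile normalization the medians were −0.26 for collagens and 0.02 for all genes with estrogen. COL25A1 turned from 0.71 to −0.21 in that comparison, COL6A2 from 0.29 to −0.24, COL1A1 from 0.30 to −0.50 and COL16A1 from 0.02 to −0.49. No direction with estrogen is given for these chains. COL18A1 went from 0.92 to 0.015 and COL8A1 from −0.32 to −2.03, so their sizes also depended on scaling.

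Estrogen withdrawal was compared within each site. In lymph nodes no chain was called in limma, 0 of 37 had an unadjusted p below 0.05 (5.84% of all genes), and 0% of all genes were called. The 5 chains with the greatest statistic were COL1A1 (−0.55 ± 0.29, estrogen minus withdrawn), COL16A1 (0.40 ± 0.22), COL4A6 (1.05 ± 0.60), COL3A1 (−0.70 ± 0.41) and COL13A1 (0.29 ± 0.21), all with limma adjusted p of at least 0.910. COL1A1 and COL5A1 were the only chains whose groups did not overlap, and 9.93% of all genes did not. The COL1A1 difference turned to 0.046 when the mean of its 6 probe sets was used. Without the estrogen lymph node array of mouse 11, COL1A1 differed by −0.72, COL16A1 by 0.28 and COL4A6 by 1.02. COL3A1 then differed by −0.81, COL13A1 by 0.15 and COL5A1 by 0.17. In that setting 16 of the 37 differences were positive, against 21 with all arrays. No chain was called there, and 0.0524% of all genes were.

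In primary tumors no chain was called in limma, and 0 of 37 had an unadjusted p below 0.05 (26% of all genes), while 7.82% of all genes were called (0.879% higher and 6.94% lower). The chains with the greatest statistic were COL20A1 (0.70 ± 0.31, limma adjusted p = 0.194), COL9A3 (−1.51 ± 0.70), COL8A2 (0.71 ± 0.34), COL4A2 (0.69 ± 0.35) and COL8A1 (0.85 ± 0.47). Leaving out 1 array moved COL20A1 between 0.23 and 1.21, COL9A3 between −2.06 and −0.93, COL8A2 between 0.30 and 1.08 and COL8A1 between 0.22 and 1.43, with no call. Of the 37 chains, 30 were higher with estrogen (81.1%, against 44.1% of all genes), with a median of 0.16 against −0.10. Among the 26 chains with means below 4 the median was 0.15, and among all 7623 such genes it was 0.11. In 15 chains the groups did not overlap, as in 60.9% of all genes. COL8A1 moved to 2.56 after quantile normalization (limma adjusted p = 0.0757), when 1.35% of all genes were called.

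The response to withdrawal was not shown to differ between sites for any chain. None of the 37 was called in limma for the difference of responses, 0 had an unadjusted p below 0.05 (10.8% of all genes), and 0.0116% of all genes were called. COL4A2 (−0.87 ± 0.46, limma adjusted p = 0.556), COL9A3 (1.43 ± 0.92), COL20A1 (−0.60 ± 0.41), COL13A1 (0.48 ± 0.33) and COL15A1 (−0.48 ± 0.37) had the greatest statistic. Averaged over the sites, none was called for estrogen against withdrawal in limma, 1 had an unadjusted p below 0.05 (27% of all genes), and 8.01% of all genes were called (0.979% higher and 7.04% lower). That chain was COL16A1 (0.40 ± 0.17, limma adjusted p = 0.169).

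**Figure D5:**
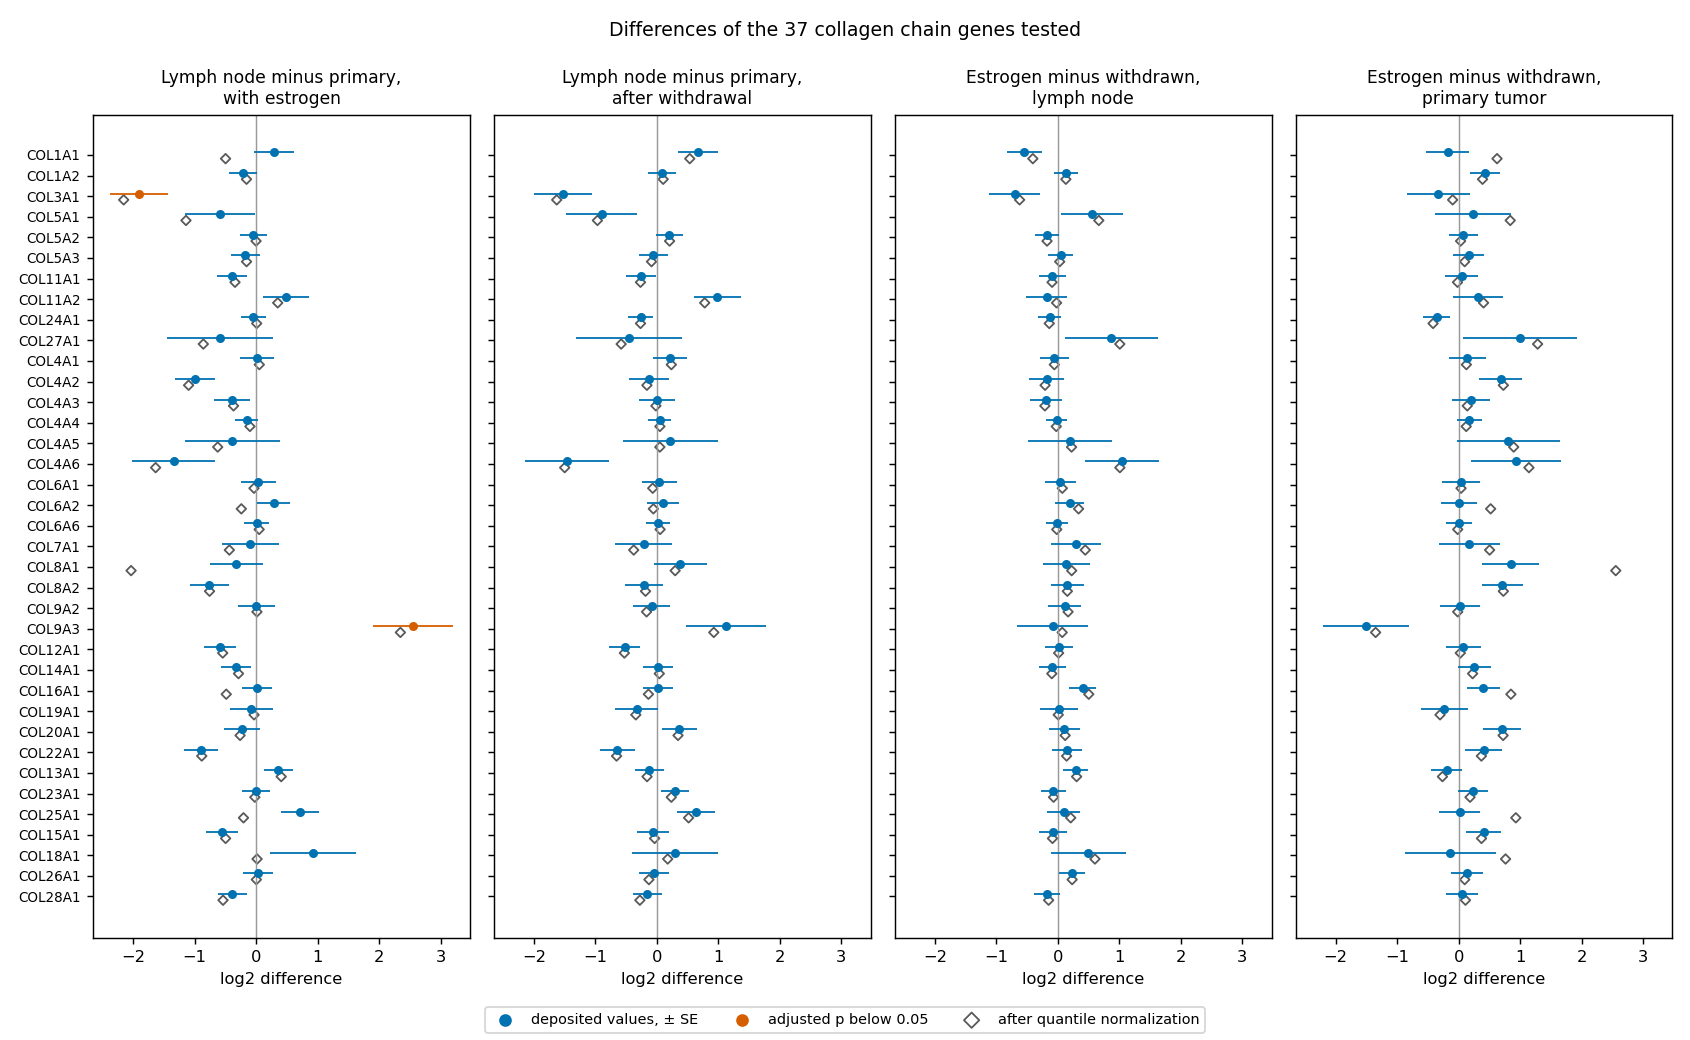
Log2 difference (x axis) with SE for the 37 chains tested (y axis) in 4 comparisons, on the deposited values (filled, orange where the adjusted p is below 0.05) and after quantile normalization (open). Only COL3A1 and COL9A3 are orange, both in the site comparison with estrogen, and COL8A1 shows the widest gap between filled and open points.

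Genes that process collagen were counted against the floor in the same way, which 41.3% of all genes passed on all arrays. Of 11 propeptide processing genes 3 did so, and of 7 cross-linking genes 2. Of 14 measured genes that hydroxylate and modify chains, 10 were above the floor on all arrays, including the prolyl 4-hydroxylase genes P4HA1, P4HA2 and P4HB and the lysyl hydroxylase genes PLOD1, PLOD2 and PLOD3. With estrogen, 4 of the 14 were higher in lymph nodes and none lower (7.81% of all genes were higher), and all 14 differences were positive (median 1.27 against 0.26 over all genes). In that comparison 8 of 16 luminal markers were higher too, with a median of 1.61, and the primary tumor arrays used are the 2 with the low 99th percentiles. The 4 genes were P3H4 (1.79 ± 0.23), PLOD3 (1.77 ± 0.24), PPIB (2.18 ± 0.39) and PLOD1 (1.24 ± 0.32). P3H4, of the prolyl 3-hydroxylase family, read 8.17, 8.40 and 7.82 in estrogen lymph nodes, all above the primary tumors at 6.32 and 6.36. Averaged over pellet states 7 of the 14 were higher and none lower, against 7.51% and 0.641% of all genes. Of the 16 luminal markers 4 were higher in that average too. None of the 14 was called in either site comparison after quantile normalization, where PLOD3 differed by 0.00 with estrogen and the list's median was 0.50.

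Of 20 genes for folding and export, 16 were above the floor on all arrays, among them SERPINH1, the collagen chaperone. With estrogen, 3 of the 20 were higher in lymph nodes, against 7.81% of all genes: SAR1B (2.85 ± 0.27), SEC13 (2.15 ± 0.26) and HSP90B1 (2.39 ± 0.62). SAR1B and SEC13 belong to the COPII coat that carries cargo out of the endoplasmic reticulum. SAR1B read 10.55, 9.78 and 10.36 in estrogen lymph nodes, against 7.32 and 7.46 in the primary tumors. It was still called after quantile normalization (1.69, limma adjusted p = 0.023), whereas SEC13 (0.34) and HSP90B1 (1.30) were not. In primary tumors SEC13 (−2.12 ± 0.28), SAR1B (−2.18 ± 0.29) and HSP90B1 (−2.85 ± 0.67) were lower with estrogen than after withdrawal, against 6.94% of all genes called lower. This comparison shares the 2 estrogen primary tumor arrays with the former. None of the 3 was called there after quantile normalization (−0.28, −1.03 and −1.69).

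Among 15 genes of collagen breakdown and its inhibitors, 3 were lower with estrogen when the sites were averaged, against 7.04% of all genes. Of the 16 luminal markers 8 were lower there too, with a median of −1.26. TIMP3, an inhibitor of matrix proteases, differed by −2.63 ± 0.30, MMP16, a membrane-bound matrix metalloproteinase, by −3.52 ± 0.56, and CTSL, a lysosomal protease, by −1.56 ± 0.30. TIMP3 read 7.88, 8.14 and 8.70 in lymph nodes with estrogen, 10.79, 10.46 and 10.02 after withdrawal, 7.42 and 8.22 in primary tumors with estrogen and 11.49 and 10.35 after withdrawal. The withdrawn arrays were higher in both sites without overlap. TIMP3 (−1.89) and MMP16 (−3.37) were called after quantile normalization too, and CTSL (−0.82, limma adjusted p = 0.0935) was not. Of the 16 luminal markers 5 were called in that setting as well.

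Of 16 collagen receptor genes, DDR1, a receptor kinase for fibrillar and type IV collagen, and ADGRG1 were lower with estrogen on average (−1.72 ± 0.17 and −1.31 ± 0.17). CD44 was higher (1.28 ± 0.32). Of all genes 7.04% were called lower and 0.979% higher in that average. DDR1 (−0.79) and CD44 (1.79) were called after quantile normalization, and ADGRG1 (−0.58) was not. Of 19 basement membrane partners, LAMB2 (−1.68 ± 0.23) and LAMA5 (−1.05 ± 0.22), both laminin chains, were lower with estrogen in the same average. SPARC, a collagen-binding protein, was higher (0.82 ± 0.21). LAMB2 (−1.41) and SPARC (0.93) kept their calls after quantile normalization and LAMA5 (−0.17) did not.

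Of 17 fibril partners, 1 was called in primary tumors, against 0.879% of all genes higher. PRELP, a matrix proteoglycan, was higher with estrogen there (2.00 ± 0.47) and read 7.03 and 6.72 against 4.63 and 5.09. With estrogen it was lower in lymph nodes (−1.75 ± 0.44), where 0.949% of all genes were called lower. In that comparison 15 of the 17 differences were negative, with a median of −0.34 against 0.26 over all genes. After quantile normalization PRELP was called in neither comparison (2.73, limma adjusted p = 0.0580, and −2.53, limma adjusted p = 0.100). Of 7 cross-linking genes, LOXL4, a lysyl oxidase, was higher with estrogen on average (1.46 ± 0.34) and PXDN, which cross-links type IV collagen, lower (−1.39 ± 0.33). In that average 0.979% of all genes were called higher and 7.04% lower. LOXL4 was called after quantile normalization as well (limma adjusted p = 0.037), and PXDN (−0.55, limma adjusted p = 0.246) was not.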

How the data were processed

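The analysis started from the authors' deposited log2 signals of 61359 probe sets on 10 arrays from 6 mice. Per the submitters' processing notes, RMA and Partek were used, with no versions given. RNA had been amplified by PCR after laser capture, per the labels' protocols, which adds noise and can favor 3′ ends. The precision is limited by the number of arrays. Gene symbols came from the platform annotation and can be old, and 62 control probe sets were left out. Genes whose highest probe set mean reached the 25th percentile of all means (2.311) were tested, which kept 17169 genes and 37 of 43 collagen chains.

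Tests used limma 3.58.1 in R 4.3.3 with 1 mean per group and all 10 arrays. Mouse was a random block because 4 mice gave both sites. After group means were subtracted, the arrays of 1 mouse correlated at 0.176 for mouse 10, −0.208 for 11, −0.210 for 14 and 0.0831 for 19. Adjusted p-values are Benjamini-Hochberg over all genes tested, called below 0.05. Errors of differences are SE from this fit, and those of group means are SD. The fitted correlation within a mouse was −0.042, so arrays of both sites of a mouse were treated nearly as unpaired. P-values measure the spread between arrays within groups, each array of a group from a different mouse. That spread mixes differences of mice with those of capture and amplification, which cannot be told apart here. The fit was tested on simulated data.

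Named were chains above the floor in a group, chains called, and the 5 with the greatest statistic in each comparison. From the other lists, up to 4 called members were named. The members and lists were chosen with earlier results of these data known. Alternatives were quantile normalization, filters, all probe sets, no block, other floors and leaving out each array.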

Additional observations from a re-analysis of the deposited data

How the results depend on the processing

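The number of chains called between sites with estrogen, 2, became 0 after quantile normalization, 1 with no filter on low values, 0 with the mean of all probe sets, and 0 to 4 when 1 array was left out. The number called in the site average, 3, became 0 after quantile normalization, 1 with the mean of all probe sets, and 0 to 4 when 1 array was left out. With the filter at the 50th percentile they were 2 and 2. The fit with no replicate block for mouse gave the same counts, 2 and 3. The other 5 comparisons had no call in any setting run. The 9 chains above the floor became 16 when the floor was the median of all probe sets, 8 at the 99th and 10 at the 90th percentile of olfactory receptor genes, and 9 to 10 when 1 array was left out. The COL1A1 difference in lymph nodes, −0.55, turned to 0.046 with the mean of all probe sets. The causes were not tested. Between the sites, quantile normalization moved the median of all genes with estrogen from 0.26 to 0.02, and in primary tumors that of estrogen minus withdrawn moved from −0.10 to 0.06. Leaving out the lymph node array of mouse 11 raised the share of all genes called with estrogen to 22.4%. Groups of 2 and 3 arrays and values near the floor limit what could be seen for most chains.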

Other observations

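Of 7 propeptide processing genes tested, PCOLCE, which speeds the trimming of procollagen, was higher in lymph nodes on average (0.87 ± 0.22), against 7.51% of all genes. Of 18 regulators of collagen genes, CEBPB was higher in lymph nodes with estrogen (2.41 ± 0.43), against 7.81% of all genes. It read 10.37, 10.45 and 9.28 there and 7.39 and 7.86 in primary tumors, without overlap. Estrogen minus withdrawn, averaged over the sites, was positive in 3 of the 18 regulators, with a median of −0.42 and no call. Neither PCOLCE nor CEBPB was called after quantile normalization. Of 10 pericyte and smooth muscle genes, NOTCH3 was higher in lymph nodes with estrogen (1.68 ± 0.27), against 7.81% of all genes. It was not called after quantile normalization (0.69, limma adjusted p = 0.405). Of 9 chondrocyte and bone genes tested, IBSP was lower with estrogen on average (−0.74 ± 0.14), against 7.04% of all genes. It was called after quantile normalization as well (−0.77). IBSP was not above the floor on every array in either lymph node group or in primary tumors with estrogen, so the size of its difference is uncertain. In primary tumors 5 of 16 luminal markers were lower with estrogen, against 6.94% of all genes. Their median was −2.14, against −0.10 over all genes. After quantile normalization it was −0.50 with 1 call, and 1.35% of all genes were called. The 4 basal markers had a median of 1.20 there. No endothelial, basal, leukocyte or adipocyte marker was called in any of the 7 comparisons.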
